A study of Mus musculus with 12 samples.

Results

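The integrated stress response genes followed here are 10 genes around the transcription factor ATF4: *Atf4*, *Atf3*, *Ddit3*, *Ddit4*, *Trib3*, *Gdf15*, *Chac1*, *Asns*, *Sesn2* and *Ppp1r15a*. They were chosen by symbol, and all 10 were found among the 16234 genes of the count table. Their NCBI Gene numbers in the table are 11911 for *Atf4*, 11910 for *Atf3*, 13198 for *Ddit3*, 74747 for *Ddit4*, 228775 for *Trib3*, 23886 for *Gdf15*, 69065 for *Chac1*, 27053 for *Asns*, 230784 for *Sesn2* and 17872 for *Ppp1r15a*. All 10 passed edgeR's filter on low counts and were among the 12208 genes tested. RNA was sequenced from bone marrow-derived mast cells (BMMCs), which are mast cells grown from mouse bone marrow for 4 to 8 weeks in IL-3 and SCF. The 12 libraries form 6 groups of 2, and each group joins a genotype label with a treatment (unstimulated or stimulated). Labels for the *Elk4* gene are WT for the wild type, HZ for heterozygous cells and KO for the knockout. *Elk4* encodes an ETS transcription factor that acts with serum response factor. By the study's methods, the mice carried a conventional *Elk4* deletion on a C57BL/6N background, were 6 to 12 weeks old and of both sexes, and WT mice were littermates. Stimulated cells were loaded overnight with 0.5 µg/ml of IgE against DNP and then given 100 ng/ml DNP-HSA for 1 h, which crosslinks the IgE receptor FcϵRI. Whether unstimulated cells also received IgE is not stated, and neither is whether the 2 replicates of a group came from separate mice or cultures, so p-values measure the spread between these libraries, which may be technical.

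The integrated stress response is the common path of 4 kinases that phosphorylate the translation factor eIF2 when amino acids are short, when misfolded protein fills the endoplasmic reticulum, when haem is short or when double-stranded RNA is present. Phosphorylated eIF2 slows translation of most mRNAs while the *Atf4* mRNA is translated more, through short reading frames ahead of its coding sequence. ATF4 then acts with other bZIP proteins on genes for amino acid supply, redox balance and stress signalling. Since much of ATF4's control is at translation, its mRNA level is not a measure of its protein, and no protein was measured in these libraries. Several of the 10 genes are also known to answer other signals, among them the early gene programme that follows receptor stimulation.

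ATF4 and its partners bind the C/EBP-ATF response element (CARE), searched here as TGATGNAA, and ATF and CREB proteins bind the cAMP response element (CRE), searched as TGACGTCA. ELK4 belongs to the ETS family, whose sites were searched as CCGGAAGT. Each motif was searched on both strands in RefSeq's promoter windows of build GRCm38.p6, which run from 250 bases before to 50 bases after the start of each gene. All 10 genes were matched to a window, and *Gdf15* had 2. A CARE stood in the windows of 4 of the 10 genes (*Atf3*, *Chac1*, *Asns* and *Trib3*) and in 3.97% of all 32851 windows. A CRE stood in the window of 1 gene, *Ppp1r15a*, and in 1.79% of all windows. The ETS motif stood in the window of 1 gene, *Ddit3*, and in 3.89% of all windows, and the CArG box of serum response factor stood in none of the 10 genes' windows and in 1.63% of all. These are matches of letters and not measured binding. The 80-base stretches below are those of the 4 genes with a motif before the start that rose on stimulation in every genotype, and of *Ddit3*, which holds the ETS match. Capitals mark the motif, in the direction of the gene, so that a motif on the other strand appears as its reverse complement.
Atf3, chr1:191183400-191183479, minus strand: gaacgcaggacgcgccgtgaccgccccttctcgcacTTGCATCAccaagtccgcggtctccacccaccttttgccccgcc
Chac1, chr2:119351013-119351092, plus strand: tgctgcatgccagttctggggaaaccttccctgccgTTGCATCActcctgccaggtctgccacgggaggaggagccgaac
Asns, chr6:7693210-7693289, minus strand: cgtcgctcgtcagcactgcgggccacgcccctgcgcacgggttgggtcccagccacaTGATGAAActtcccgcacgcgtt
Ppp1r15a, chr7:45526269-45526348, minus strand: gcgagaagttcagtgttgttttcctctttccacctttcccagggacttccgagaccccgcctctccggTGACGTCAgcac
Ddit3, chr10:127290557-127290636, plus strand: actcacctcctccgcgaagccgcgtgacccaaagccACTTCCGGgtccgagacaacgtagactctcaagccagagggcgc

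A library held from 29697958 to 35531667 reads assigned to genes, and the spread between replicates, as a biological coefficient of variation, was 4.01%. *Elk4* itself had between 1867 and 3238 counts in a library. Its level was 73.2 and 78.3 CPM in the unstimulated WT libraries, 69.7 and 63.5 CPM in the KO libraries and 93.2 and 86.0 CPM in the HZ libraries, so it did not follow the labels in the order WT, HZ, KO. A count over the whole gene cannot show a deletion inside it, and genotypes are given here as the libraries are labelled. The summed level of the 10 mast cell markers found in the table was between 36229 and 42892 CPM, whereas neutrophil, T cell, B cell and erythroid markers each summed to at most 0.372 CPM. The mast cell sum was 36229 to 36712 CPM in unstimulated and 40203 to 40366 CPM in stimulated WT. In HZ it was 42263 to 42892 and 36545 to 36933 CPM, and in KO 37237 to 38067 and 37077 to 37287 CPM. Single mast cell markers differed from WT by -2.89 to 0.56 on the log2 scale in unstimulated KO, and by -0.21 to 1.49 in unstimulated HZ. Some other markers also moved with the groups. The 6 macrophage markers summed to 45.6 to 48.7 CPM in unstimulated and 58.9 to 60.3 CPM in stimulated WT, to 35.7 to 37.6 and 67.9 to 70.2 CPM in HZ, and to 54.7 to 59.9 and 63.1 to 69.8 CPM in KO. The 3 basophil markers summed to 596 to 601 and 520 to 523 CPM in WT, 673 to 674 and 465 to 472 CPM in HZ, and 469 to 473 and 513 to 521 CPM in KO. Eosinophil markers, 2 of 3 found, summed to at most 1.15 CPM in unstimulated and from 1.31 to 3.57 CPM in stimulated libraries. The part of these marker differences in the results below was not tested. CPM values are counts relative to library size after TMM scaling, which sets libraries to a common level over most genes. With library totals in place of TMM, the median log2 fold change of all genes on stimulation moved by -0.31 in WT, -0.23 in HZ and -0.29 in KO, and changes below are relative to the TMM level.

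Per length, *Atf4* was the most abundant of the 10 mRNAs in every unstimulated group. It had 335 ± 9.0 FPKM in unstimulated WT (mean ± SD, n = 2), followed by *Ppp1r15a* at 72.4 ± 4.2 FPKM and *Ddit4* at 55.5 ± 0.13 FPKM. *Gdf15*, at 9.68 ± 0.32 FPKM, and *Chac1*, at 6.64 ± 0.67 FPKM, were the lowest in that group. After stimulation the order was different. *Atf3*, the third lowest in unstimulated WT at 16.6 ± 1.6 FPKM, reached 487 ± 5.0 FPKM, just below *Ppp1r15a* at 551 ± 2.1 FPKM and *Atf4* at 575 ± 8.7 FPKM. In the stimulated HZ and KO libraries *Atf3* stood first, with 717 ± 1.5 and 680 ± 0.079 FPKM. FPKM values are scaled to library totals and not by TMM, so they serve here for the order of genes within a group.

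**Figure D1:**
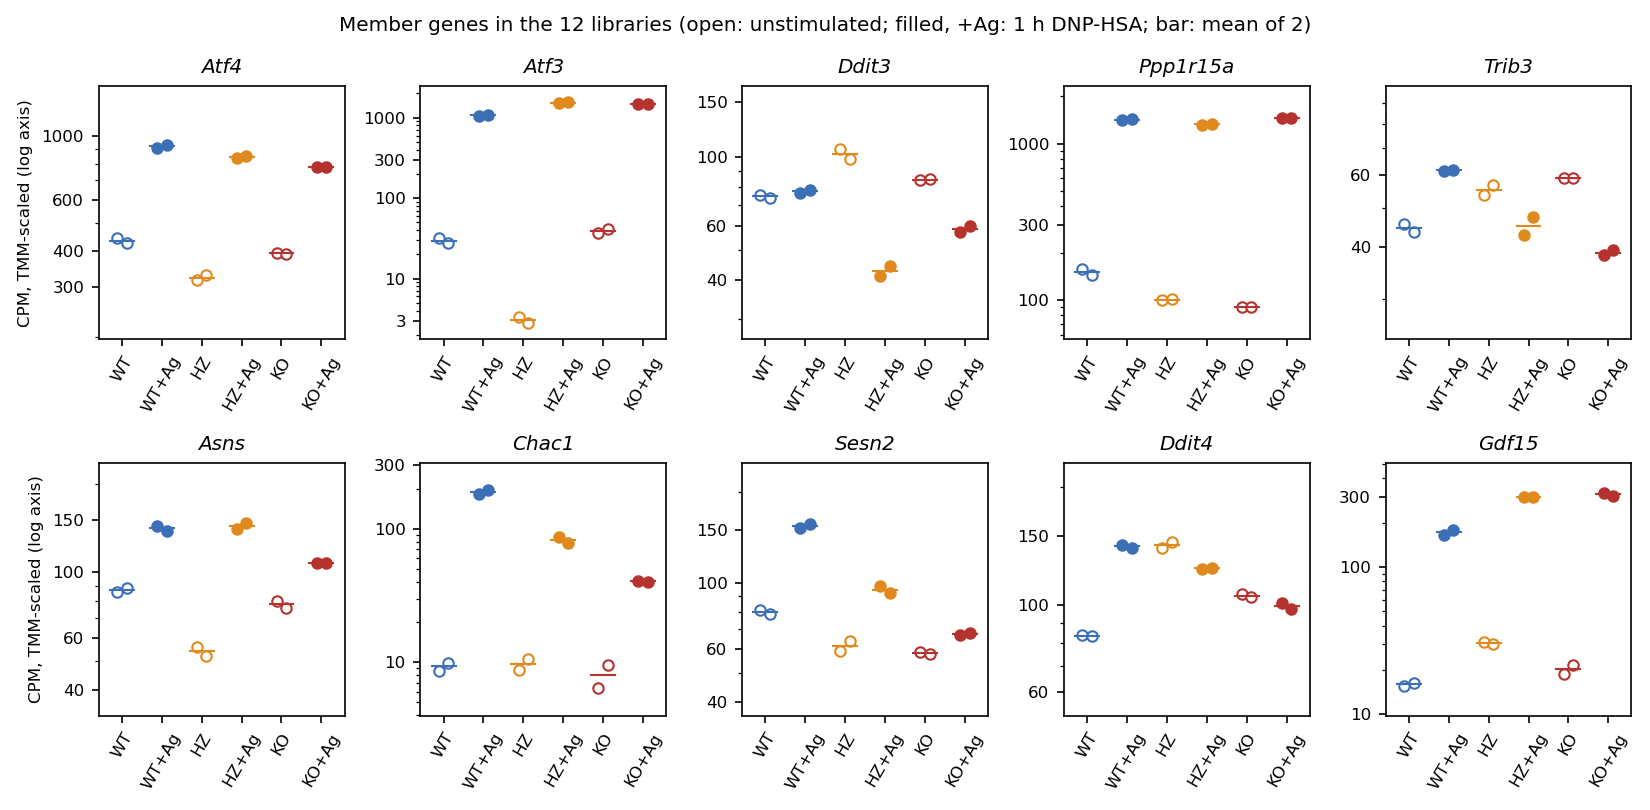
Level of each of the 10 genes in the 12 libraries, in TMM-scaled CPM on a log axis, for cells labelled WT, HZ and KO; open points are unstimulated, filled points stimulated (+Ag), and bars are means of 2 libraries. *Atf3*, *Ppp1r15a*, *Gdf15*, *Chac1*, *Atf4* and *Asns* were higher in every stimulated library than in any unstimulated one. The share of all genes that did so was not counted. *Ddit3* ran from 41.4 to 44.7 CPM in stimulated HZ up to 98.4 to 106 CPM in unstimulated HZ.

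The first question was how the 10 genes differed between stimulated and unstimulated libraries. Unstimulated cells may not have received IgE, so effects of overnight IgE and of 1 h of FcϵRI crosslinking cannot be told apart. In WT, 9 of the 10 genes rose and none fell at an adjusted p below 0.05, against 22.4% of all genes tested that rose and 22.9% that fell. Of these, 5 also passed the 2-fold threshold (*Atf3*, *Chac1*, *Gdf15*, *Ppp1r15a* and *Atf4*), against 3.71% of all genes, and none fell by 2-fold, against 3.06% of all genes. In HZ, 7 rose and 3 fell, against 32.9% and 31.6% of all genes. With the 2-fold threshold these were 6 and 1, against 7.02% and 7.28%. In KO, 7 rose and 2 fell, against 20.4% and 20.5%, and 4 rose and none fell past 2-fold, against 3.73% and 2.88%. The median log2 fold change of the 10 genes was 1.02 in WT, 1.40 in HZ and 0.73 in KO, with medians of all genes tested of -0.01, 0.00 and -0.01. In bulk libraries such as these, a change in the share of cells that express a gene and a change in its RNA per cell cannot be told apart.

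*Atf4*, the transcription factor at the centre of the response, had 443 and 424 CPM in the unstimulated WT libraries and 909 and 930 CPM in the stimulated ones. It had 315 and 329 CPM before and 840 and 848 CPM after stimulation in HZ, and 392 and 390 CPM before and 782 and 781 CPM after in KO. Stimulated libraries thus lay above unstimulated ones in each genotype, and the replicates lay close together. The rise was 2.12-fold in WT (log2 fold change 1.09 ± 0.03 SE), 2.62-fold in HZ (1.39 ± 0.03) and 2.00-fold in KO (1.00 ± 0.03), where it was just under the 2-fold threshold and just over it with DESeq2 (1.01). In WT it was 0.78 on the log2 scale with library totals, which is under that threshold.

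*Atf3*, a bZIP repressor and early response gene that ATF4 also induces, showed the widest range of the 10. Unstimulated WT libraries held 31.5 and 27.3 CPM, KO libraries 37.2 and 40.9 CPM, and HZ libraries only 3.28 and 2.82 CPM, from 114 and 93 counts. Stimulated libraries held 1057 and 1073 CPM in WT, 1533 and 1548 CPM in HZ and 1491 and 1492 CPM in KO. The rise was 36.2-fold in WT (5.18 ± 0.04 on the log2 scale), 38.2-fold in KO (5.26 ± 0.04) and 503-fold in HZ (8.98 ± 0.06). Unstimulated HZ libraries lay far below all others, while stimulated HZ and KO libraries lay together above the stimulated WT ones.

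*Ppp1r15a* encodes GADD34, the phosphatase subunit that removes phosphate from eIF2 and so ends the response. It rose from 158 and 144 CPM to 1418 and 1427 CPM in WT, which was 9.42-fold (3.24 ± 0.03 on the log2 scale). In HZ it rose from 99.8 and 101 CPM to 1310 and 1340 CPM, or 13.2-fold, and in KO from 90.6 and 89.8 CPM to 1447 and 1458 CPM, or 16.1-fold. The 6 stimulated libraries lay close together, and the unstimulated WT libraries lay above those of HZ and KO. In the RefSeq gene table the span of *Ppp1r15a* overlaps that of *Tulp2*, and that of *Ddit3* overlaps *Mars1* and *Mbd6*. Whether reads were counted by strand is not given in the sources used here, so reads of such neighbours may not be separable.

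*Ddit3* encodes CHOP, a bZIP factor linked to cell death under lasting stress, and it is a well-known target of ATF4. It had 75.6 and 73.6 CPM in unstimulated and 76.6 and 78.3 CPM in stimulated WT. These ranges did not overlap, but the difference did not pass the test (0.05 ± 0.05 on the log2 scale, adjusted p = 0.431), whereas with library totals it fell (-0.25, adjusted p = 4.75e-05). In HZ it fell from 106 and 98.4 CPM to 41.4 and 44.7 CPM, 2.37-fold lower, and in KO from 84.1 and 84.6 CPM to 57.1 and 59.7 CPM, 1.44-fold lower. *Ddit3* was thus the single member that fell past the 2-fold threshold in any genotype, and it did so in the HZ libraries.

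*Trib3*, a pseudokinase that ATF4 and CHOP induce and that restrains both, moved in opposite directions. It rose from 45.5 and 43.5 CPM to 61.4 and 61.8 CPM in WT (0.47 ± 0.06 on the log2 scale). It fell from 53.8 and 56.8 CPM to 42.9 and 47.4 CPM in HZ (-0.29 ± 0.06) and from 59.1 and 58.9 CPM to 38.2 and 39.3 CPM in KO (-0.61 ± 0.06). All 3 changes were smaller than 2-fold, with adjusted p of 1.27e-08, 5.95e-05 and 2.53e-11. Over the alternative settings the values ran from 0.16 to 0.49 in WT, -0.52 to -0.29 in HZ and -0.90 to -0.59 in KO.

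The genes of amino acid and glutathione metabolism differed in size of response. *Chac1*, which degrades glutathione, had 8.66 and 9.95 CPM in unstimulated WT, 8.75 and 10.6 CPM in HZ and 6.37 and 9.61 CPM in KO, and these ranges overlapped. After stimulation it had 181 and 196 CPM in WT, 86.1 and 78.3 CPM in HZ and 40.8 and 39.96 CPM in KO, and these did not overlap. *Chac1* therefore rose 20.2-fold in WT (4.34 ± 0.09 on the log2 scale), 8.49-fold in HZ (3.09 ± 0.09) and 5.07-fold in KO (2.34 ± 0.10).

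*Asns*, the enzyme that makes asparagine, rose from 86.0 and 88.5 CPM to 144 and 138 CPM in WT, 1.61-fold. In HZ it rose from 55.8 and 52.2 CPM to 140 and 147 CPM, 2.66-fold, and in KO from 80.1 and 75.6 CPM to 108 and 108 CPM, 1.38-fold. The stimulated HZ libraries overlapped the stimulated WT ones, while the unstimulated HZ libraries were the lowest of all.

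*Sesn2* and *Ddit4*, both inhibitors of the growth kinase complex mTORC1, rose in WT and less or not at all in the other genotypes. *Sesn2* went from 80.9 and 78.5 CPM to 152 and 157 CPM in WT (0.96 ± 0.05 on the log2 scale), from 59.0 and 64.1 CPM to 97.3 and 92.4 CPM in HZ (0.63 ± 0.05), and from 58.8 and 57.6 CPM to 66.8 and 68.0 CPM in KO (0.21 ± 0.05). With library totals the KO value was -0.078, so its direction depended on the scaling. *Ddit4* went from 83.7 and 83.5 CPM to 143 and 140 CPM in WT, a rise of 0.76 ± 0.04 on the log2 scale. In HZ *Ddit4* fell from 140 and 145 CPM to 124 and 124 CPM (-0.20 ± 0.04). In KO it had 107 and 105 CPM before and 102 and 97.6 CPM after, which did not pass the test (-0.09 ± 0.04, adjusted p = 0.105), whereas with library totals it fell (-0.38, adjusted p = 3.40e-10).

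*Gdf15*, a secreted stress cytokine of the TGF-β superfamily, rose in each genotype. It went from 15.7 and 16.4 CPM to 165 and 179 CPM in WT, 10.7-fold, and from 31.1 and 29.99 CPM to 298 and 298 CPM in HZ, 9.76-fold. In KO it went from 18.9 and 21.7 CPM to 320 and 304 CPM, 15.4-fold. Both labels other than WT thus reached higher levels after stimulation than WT did, without overlap.

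**Figure D2:**
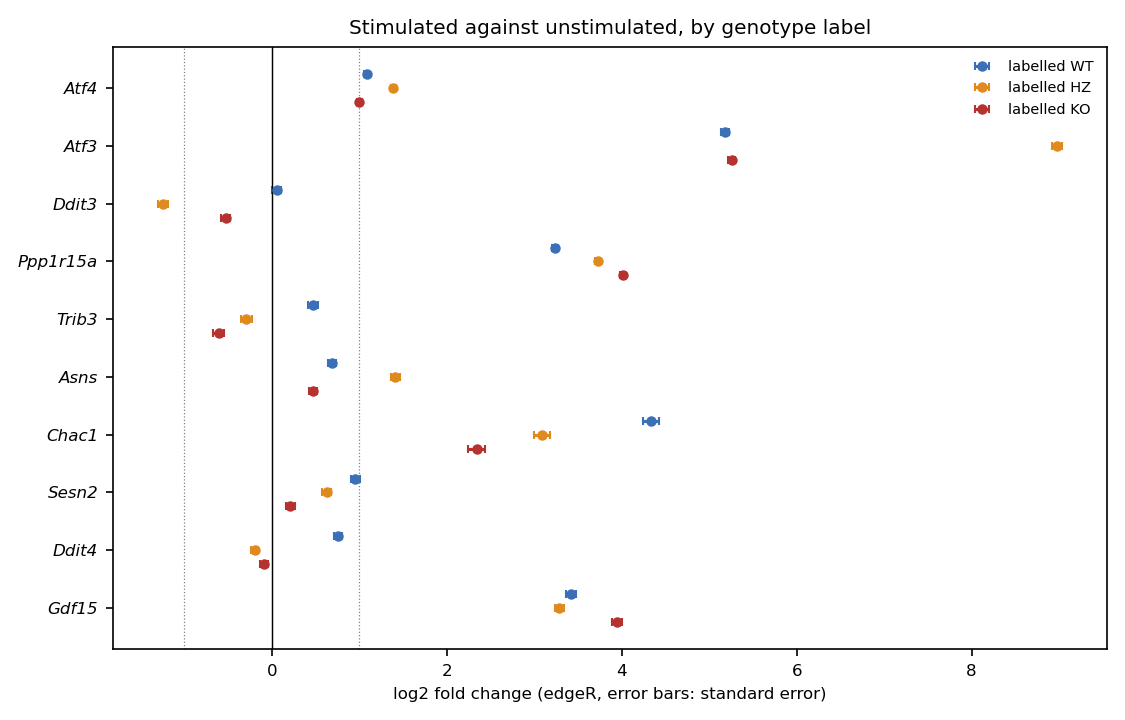
Log2 fold change of stimulated against unstimulated libraries for each of the 10 genes (x axis) in WT, HZ and KO. Bars are standard errors derived from edgeR's test, and dotted lines are at 2-fold. Each value compares 2 with 2 libraries. *Chac1*, *Sesn2*, *Ddit4*, *Trib3* and *Ddit3* had their highest values in WT, *Atf3* stood at 8.98 in HZ, and *Ddit3* and *Trib3* lay below 0 in HZ and KO.

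The second question was whether the response differed between genotypes, tested as an interaction in the same model. The KO and HZ comparisons share the WT libraries. Against WT, the log2 fold change on stimulation was higher in KO for 2 of the 10 genes and lower for 6. Of all genes, 5.44% were higher and 3.83% lower by this measure. Its sign is kept, so a lower value can be a smaller rise or a fall. For HZ the log2 fold change was higher for 4 and lower for 5, against 19.9% and 18.6% of all genes. *Chac1* had the largest difference in KO, with a response lower by 3.98-fold (-1.99 ± 0.14 on the log2 scale, adjusted p = 1.58e-15), and its response in HZ was lower by 2.38-fold (-1.25 ± 0.14). *Atf3* had the largest in HZ, 13.9-fold higher (3.80 ± 0.08), whereas in KO its difference did not pass the test (0.08 ± 0.06, adjusted p = 0.484). The responses of *Trib3*, *Ddit4*, *Sesn2* and *Ddit3* were lower in both. In KO the differences were -1.08 ± 0.09, -0.85 ± 0.06, -0.74 ± 0.07 and -0.58 ± 0.08, and in HZ they were -0.76 ± 0.09, -0.96 ± 0.06, -0.33 ± 0.07 and -1.30 ± 0.08. *Ppp1r15a* had a larger response in both, by 0.77 ± 0.04 in KO and 0.49 ± 0.04 in HZ. The *Asns* response was different in KO by -0.22 ± 0.07 (adjusted p = 0.0250) and larger in HZ by 0.72 ± 0.07, and the KO call was lost (adjusted p from 0.0716 to 0.151) without replicate 1 of unstimulated WT, stimulated WT or unstimulated KO, or without either stimulated KO library. *Atf4* itself did not pass in KO (-0.09 ± 0.04, adjusted p = 0.186) and was larger in HZ by 0.30 ± 0.04.

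The third question was how the genotypes differed before and after stimulation. Against WT, 5 of the 10 genes were higher and 4 lower in unstimulated KO libraries at an adjusted p below 0.05, against 22.9% and 21.7% of all genes. None passed 2-fold, against 2.64% of all genes higher and 4.87% lower. *Ppp1r15a* differed most, 1.67-fold lower (-0.74 ± 0.03 on the log2 scale), and *Sesn2* was lower by 1.37-fold. *Atf3* and *Trib3* were each 1.33-fold higher, and *Ddit4* was 1.27-fold higher. In unstimulated HZ libraries 4 genes were higher and 5 lower, against 25.4% and 26.0% of all genes. *Atf3* was the only one of the 10 past 2-fold, 9.60-fold lower (-3.26 ± 0.08 on the log2 scale), where 5.32% of all genes were lower and 3.83% higher by that measure. *Asns* was 1.62-fold and *Ppp1r15a* 1.51-fold lower in unstimulated HZ, while *Gdf15* was 1.91-fold and *Ddit4* 1.71-fold higher. *Chac1* passed in neither comparison, with -0.23 ± 0.12 in unstimulated KO, an adjusted p of 0.119, and 0.06 ± 0.12 in unstimulated HZ, an adjusted p of 0.727; the sign of both turned when 1 library was left out.

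After stimulation, in KO, 2 of the 10 were higher and 7 lower at an adjusted p below 0.05, against 21.2% and 19.2% of all genes. With the study's thresholds for this comparison, 1.5-fold upwards or a ratio of 0.66 downwards, these were 1 and 3, against 5.44% and 7.22%. *Chac1* was 4.66-fold lower (-2.22 ± 0.08 on the log2 scale, adjusted p = 1.25e-28), *Sesn2* 2.29-fold lower and *Trib3* 1.59-fold lower, and *Gdf15* was 1.82-fold higher. In HZ, 2 were higher and 7 lower, against 18.4% and 16.5%, and 1 and 3 past the thresholds, against 3.56% and 4.33%. *Chac1* was 2.29-fold, *Ddit3* 1.80-fold and *Sesn2* 1.63-fold lower in stimulated HZ, and *Gdf15* was 1.74-fold higher. *Atf4* was 1.18-fold lower in KO and 1.09-fold lower in HZ. *Ppp1r15a* differed by 0.03 ± 0.03 on the log2 scale in stimulated KO (adjusted p = 0.415) and *Asns* by 0.03 ± 0.05 in stimulated HZ (adjusted p = 0.670). KO was not tested against HZ. By their values, stimulated KO libraries lay below HZ ones for *Atf4*, *Atf3*, *Chac1*, *Sesn2*, *Ddit4*, *Trib3* and *Asns*, and above them for *Ddit3*, *Ppp1r15a* and *Gdf15*. This order rests on 2 libraries in each group, and the share of all genes that separated in this way was not counted.

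**Figure D3:**
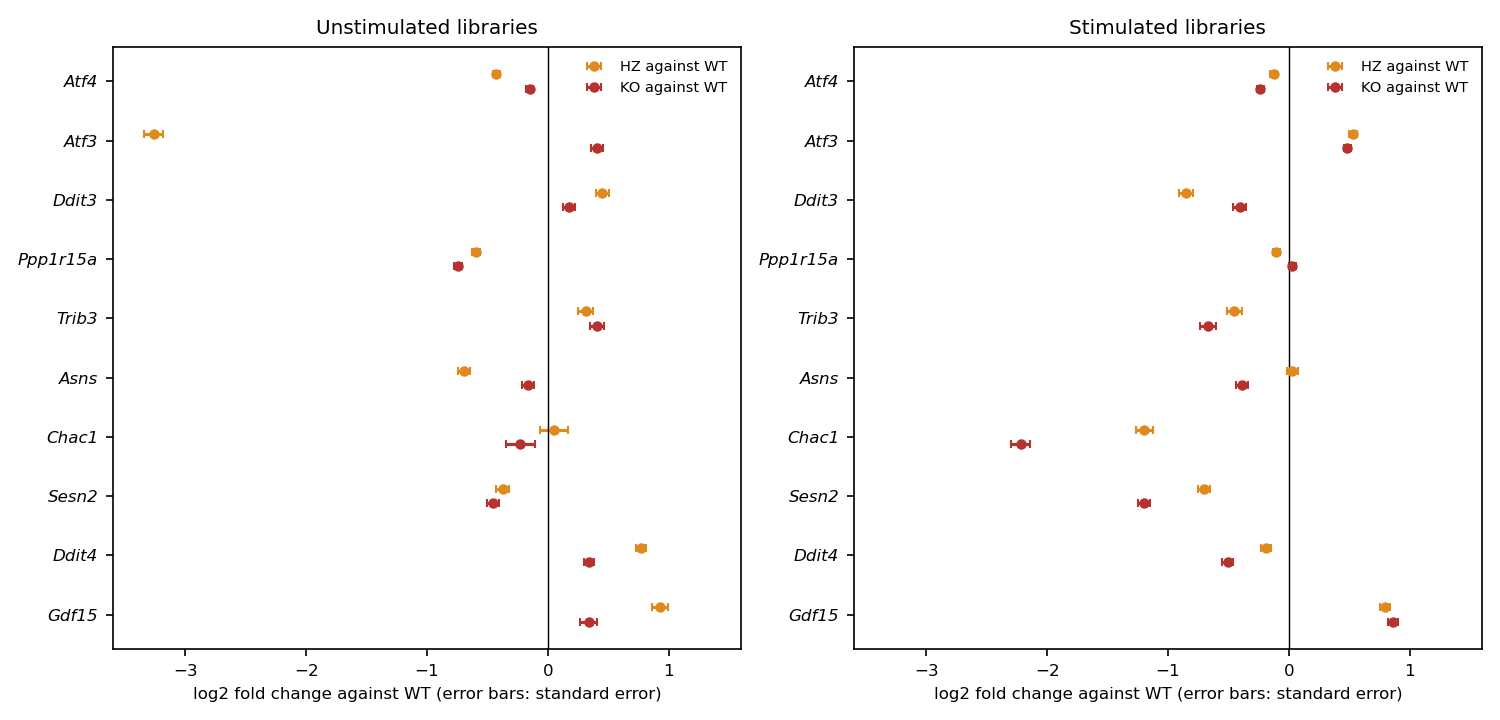
Log2 fold change of HZ and of KO against WT (x axis) for the 10 genes in unstimulated (left) and stimulated libraries (right), with standard errors as bars; each value compares 2 with 2 libraries and the WT libraries are shared. On the left *Atf3* in HZ stands alone at -3.26, and on the right *Chac1* reaches -1.19 in HZ and -2.22 in KO.

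Other genes of the pathway were taken from lists by function. Their counts on stimulation stand beside shares of all tested genes of 22.4% that rose and 22.9% that fell in WT. For HZ these shares were 32.9% and 31.6%, and for KO they were 20.4% and 20.5%. These shares hold for TMM, and none were counted for library totals. With library totals the median log2 fold change of all genes was -0.32 in WT, -0.24 in HZ and -0.30 in KO. Counts with library totals, here and below, therefore shift downwards with all genes. List medians less the median of all genes hardly moved, as for the eIF2 list in WT (0.042 with TMM, 0.041 with library totals). The 14 genes of eIF2, its kinases and its exchange factor eIF2B had median log2 fold changes on stimulation of 0.03 in WT, 0.23 in HZ and 0.04 in KO. Of them 5 rose and 1 fell in WT, 8 rose and 1 fell in HZ, and 5 rose and 3 fell in KO, whereas with library totals 1 rose and 9 fell in WT, 4 rose and 5 fell in HZ, and 0 rose and 11 fell in KO. *Eif2s2*, the beta subunit of eIF2, rose by 0.62 in WT, 0.90 in HZ and 0.38 in KO on the log2 scale. Of 17 tested genes of amino acid transport and synthesis, 15 rose in WT, 16 in HZ and 11 in KO, with median log2 fold changes of 0.33, 1.03 and 0.23, and 1 fell, in HZ. With library totals 8 rose and 1 fell in WT, 15 rose and 2 fell in HZ, and 7 rose and 3 fell in KO, where the median was -0.06. *Slc7a11*, the cystine transporter, rose by 2.00 in WT, 0.58 in HZ and 1.78 in KO, and *Slc38a2*, a transporter of neutral amino acids, by 1.08, 0.46 and 0.66. Both were picked for their large change in WT, and both rose less in HZ than in WT, unlike most of the list. In HZ the log2 fold change was higher than in WT for 12 of the 17 and lower for 4. Of all genes these shares were 19.9% and 18.6%. *Phgdh*, the first enzyme of serine synthesis, was lower in unstimulated KO than in WT by 0.76 on the log2 scale. Against WT, 12 of the 17 were lower and 1 higher in stimulated KO, beside 19.2% lower and 21.2% higher of all genes, whereas in stimulated HZ 3 were lower and 8 higher, beside 16.5% and 18.4%. In unstimulated HZ 13 were lower and 3 higher, beside 26.0% and 25.4%, and in unstimulated KO 6 were lower and 1 higher, beside 21.7% and 22.9%.

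The aminoacyl-tRNA synthetases, which load tRNAs and are known targets of ATF4, were listed with the tRNA exporter *Xpot* as 13 genes. On stimulation 11 rose in WT, 13 in HZ and 9 in KO, and none fell, with median log2 fold changes of 0.25, 0.84 and 0.18. *Gars* rose by 0.67 in WT, 1.18 in HZ and 0.44 in KO. In unstimulated HZ all 13 were lower than in WT, with a median of -0.46, beside 26.0% of all genes, whereas in unstimulated KO 3 were lower and 1 higher. The log2 fold change on stimulation was higher in HZ than in WT for all 13, beside 19.9% of all genes. In KO it was lower for 3, beside 3.83%, and higher for 0. With library totals in place of TMM, 3 rose and 5 fell in WT and 2 rose and 7 fell in KO, while in HZ 13 still rose.

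Of 13 tested bZIP partners and other targets of ATF4, 11 rose and 1 fell in WT, 9 rose and 2 fell in HZ, and 8 rose and 1 fell in KO. Their median log2 fold changes were 0.79, 0.63 and 0.28, and with library totals 7 rose and 2 fell in WT, 8 rose and 2 fell in HZ, and 5 rose and 3 fell in KO, where the median was -0.01. *Vegfa*, the endothelial growth factor, rose by 2.37 in WT, 2.62 in HZ and 2.54 in KO on the log2 scale. *Adm2* and *Vldlr* also passed in WT, on very few reads: *Adm2* had 0 and 0 counts in unstimulated and 1 and 16 in stimulated WT, and *Vldlr* had 3 and 4 against 22 and 12. Of 9 relatives of the members, 3 rose and 1 fell in WT, 4 rose and 2 fell in HZ, and 4 rose and 1 fell in KO. Their median log2 fold changes were 0.13, 0.15 and 0.13. With library totals 1 rose and 3 fell in WT, and 2 rose and 3 fell in each of HZ and KO. Among these relatives, *Trib1*, a pseudokinase like *Trib3*, had 3.50 and 3.00 CPM in unstimulated and 182 and 187 CPM in stimulated WT, a log2 fold change of 5.83, with 7.76 in HZ and 6.25 in KO. *Sesn1*, a relative of *Sesn2*, fell by 0.79 in WT, 1.28 in HZ and 0.72 in KO.

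ATF6 and XBP1 each head another transcriptional arm of the response to misfolded protein in the endoplasmic reticulum, and their genes were listed together. Of these 17 genes, 16 rose in WT, 15 in HZ and 14 in KO, with median log2 fold changes of 0.24, 0.68 and 0.25. None fell in WT and 1 in each of HZ and KO. With library totals 4 rose and 5 fell in WT, 13 rose and 2 fell in HZ, and 5 rose and 6 fell in KO. *Hspa5*, the chaperone BiP, rose by 1.11 in WT, 2.26 in HZ and 1.05 in KO on the log2 scale, and was lower by 1.02 in unstimulated HZ than in WT. In unstimulated HZ 12 of the 17 were lower and 2 higher than in WT, beside 26.0% and 25.4% of all genes, whereas in unstimulated KO 1 was lower and 10 were higher, beside 21.7% and 22.9%. *Sesn2* and *Gdf15* are also targets of p53, so 11 other p53 targets were listed. On stimulation 6 rose and 3 fell in WT, with a median of 0.25, whereas with library totals 3 rose and 5 fell, with a median of -0.06. In HZ 5 rose and 4 fell, and in KO 5 rose and 5 fell. In stimulated KO 10 of the 11 were lower than in WT and none higher, with a median log2 fold change of -0.91, beside 19.2% of all genes lower, and 8 of them were past the thresholds, beside 7.22%. In stimulated HZ 10 were also lower and none higher, with a median of -0.68, beside 16.5%, and 6 were past the thresholds, beside 4.33%. In unstimulated KO 9 were lower and none higher, beside 21.7% lower, and in unstimulated HZ 8 were lower and 3 higher, beside 26.0% and 25.4%. *Mdm2*, the p53 ubiquitin ligase, was lower by 0.96 in unstimulated and 1.30 in stimulated KO.

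**Figure D4:**
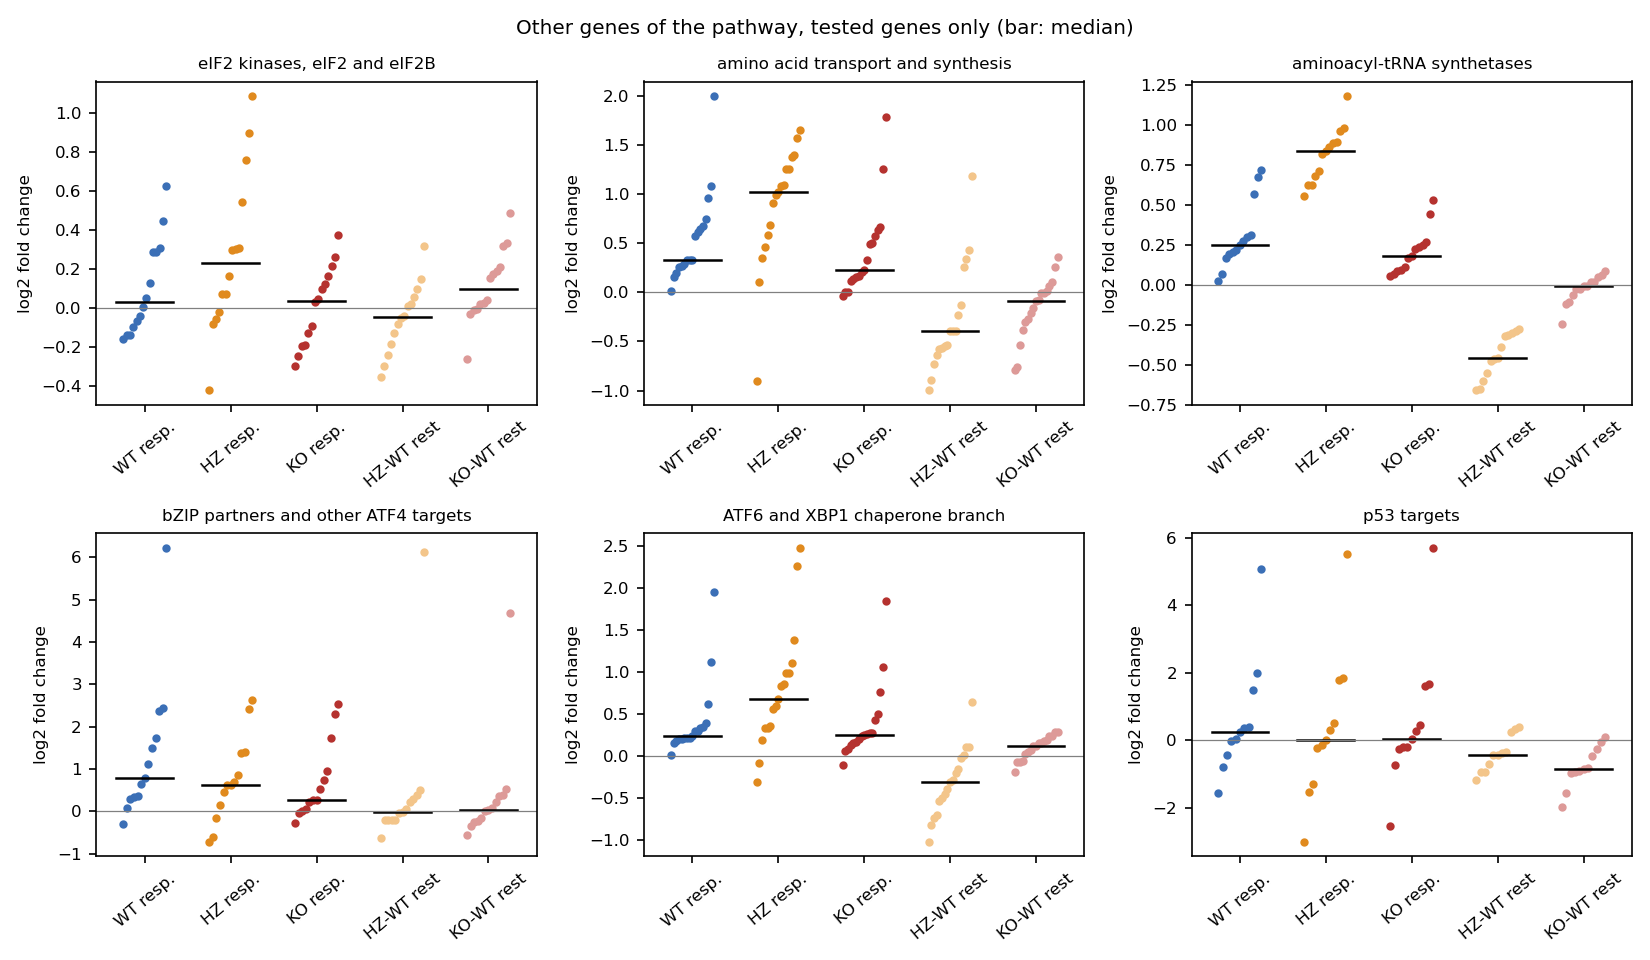
Log2 fold change of each tested gene of 6 lists (points), with the list's median as a bar: the response to stimulation in WT, HZ and KO, and the difference of unstimulated HZ and KO from WT (rest). The aminoacyl-tRNA synthetases lie below 0 in unstimulated HZ (median -0.46) and above 0 in the HZ response (median 0.84), and the single high points of the bZIP list in WT, HZ at rest and KO at rest are *Adm2*, which had between 0 and 16 counts in a library.

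Genes with the most similar pattern over the 12 libraries were sought for each of the 10, by the root mean square difference of centred log2 CPM, among 9848 other tested genes whose mean count was 100 or more. These are descriptions, since the libraries share treatment and genotype. *Atf4* was closest to the proteasome assembly gene *Psmd5* (0.05 on the log2 scale). *Asns* was closest to *Mthfd2* (0.07), the mitochondrial folate enzyme and itself a known ATF4 target. *Ppp1r15a* was closest to *Junb* (0.09) and *Atf3* to *Nr4a1* (0.66) and *Fos* (0.73), all of which are early response genes. *Gdf15* was closest to *Nfkbia* (0.31) and *Gadd45b* (0.38), and *Chac1* to *Sgk1* (0.49). *Ddit3* was closest to *Sytl1* (0.12), *Sesn2* to *Ctdspl* (0.15), *Trib3* to *Hexim1* (0.15) and *Ddit4* to *Prkg1* (0.16). The members' own SD over the libraries was 3.59 for *Atf3*, 1.92 for *Ppp1r15a*, 1.90 for *Gdf15*, 1.84 for *Chac1*, 0.62 for *Atf4* and 0.52 for *Asns*. It was 0.50 for *Sesn2*, 0.42 for *Ddit3*, 0.29 for *Ddit4* and 0.26 for *Trib3*. Beside these, the difference was small for *Atf3* and large for *Ddit4* and *Trib3*. The nearest genes of *Ddit3* and *Trib3*, picked for this likeness, also had negative values in HZ and KO. *Sytl1* had log2 fold changes of -0.01, -1.16 and -0.48 in WT, HZ and KO, and *Hexim1* of 0.14, -0.43 and -0.35. In WT *Hexim1* did not pass edgeR's test (adjusted p = 0.136), whereas *Trib3* rose.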

How the data were processed

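RNA of BMMCs was measured by RNA-seq in 12 libraries. The authors deposited raw read counts per gene and FPKM values. The submitters' processing notes name fastp, HISAT2 and HTSeq, without versions or settings, and build GRCm39. The deposited FPKM values equalled counts scaled by gene length and library total. Promoter windows are RefSeq's for GRCm38.p6, and no gene positions were carried between builds. All columns were mapped to samples by their labels, and each column held 1 library.

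The count test was edgeR's (version 4.0.16, R 4.3.3). Its filterByExpr kept 12208 of 16234 genes, TMM factors ran from 1.08 to 1.12 without stimulation and from 0.902 to 0.924 with it, and a quasi-likelihood model held a mean for each of 6 groups (prior count 0.125, residual df 6, prior df 38.9). Benjamini-Hochberg adjustment of the two-sided p-values covered all genes tested. Standard errors (SE) were taken as the size of the log2 fold change divided by the square root of the test's F statistic. Genes rose or fell at an adjusted p below 0.05. Thresholds on size were 2-fold, or 1.5 and 0.66 between stimulated genotypes, after the study's methods. The script was tested on simulated counts. Alternatives were DESeq2 1.42.0, other scalings, filters, prior counts and thresholds, limma 3.58.1 on log2 FPKM, fits of the compared groups only, replicate blocks, and leaving out each library.

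The 10 genes and all lists were chosen with earlier results of these data known. Named genes were all 10 members, *Elk4*, the 2 nearest genes of each member, and up to 3 genes of each list with the largest change in WT and 1 in unstimulated KO, of which some are given. Replicate differences of groups with the same replicate number correlated between -0.04 and 0.06 over 9858 genes, so the numbers were not taken to pair libraries.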

Additional observations from a re-analysis of the deposited data

Results flagged for a closer look

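The response to stimulation differed between genotypes, by the interaction test of edgeR at an adjusted p below 0.05, in 17 of 20 tests of the 10 genes. In KO against WT the difference of log2 fold changes was -1.99 for *Chac1*, -1.08 for *Trib3*, -0.85 for *Ddit4*, -0.74 for *Sesn2*, -0.58 for *Ddit3* and -0.22 for *Asns*, and 0.77 for *Ppp1r15a* and 0.52 for *Gdf15*. In HZ against WT it was -1.30 for *Ddit3*, -1.25 for *Chac1*, -0.96 for *Ddit4*, -0.76 for *Trib3* and -0.33 for *Sesn2*, and 3.80 for *Atf3*, 0.72 for *Asns*, 0.49 for *Ppp1r15a* and 0.30 for *Atf4*. Of all genes, 5.44% had a higher and 3.83% a lower log2 fold change on stimulation in KO than in WT. In HZ these shares were 19.9% and 18.6%, and both comparisons share the WT libraries.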

How the results depend on the processing

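With the fold threshold left out, the counts of members were 9 higher in WT, 3 lower in HZ, 7 higher and 2 lower in KO on stimulation, 5 higher and 4 lower in unstimulated KO, 4 and 5 in unstimulated HZ, and 2 and 7 in each stimulated comparison. No other setting moved a count by over 1.5 times. With library totals, *Ddit3* in WT was -0.25 and *Sesn2* in KO -0.078 on the log2 scale, and limma on log2(FPKM + 1) or log2(FPKM + 0.1) gave -0.25 and -0.25 for *Ddit3* and -0.074 and -0.077 for *Sesn2*, with or without the filter. By adjusted p alone, *Ddit3* in WT and *Ddit4* in KO (-0.38), which did not pass with TMM, passed as lower with library totals and in limma. These FPKM values are scaled to library totals by construction. Leaving out 1 library turned 4 differences, none of which had passed the test. *Chac1* ran from -0.55 to 0.046 in unstimulated KO, turning without KO unstimulated replicate 1, and from -0.096 to 0.19 in unstimulated HZ, turning without WT unstimulated replicate 1 (-0.039) or HZ unstimulated replicate 2. The *Atf3* interaction in KO ran from -0.030 to 0.16, turning without WT unstimulated replicate 1, and *Asns* in stimulated HZ from -0.0063 to 0.068, turning without HZ stimulated replicate 2. The cause was not tested. The *Asns* interaction in KO was lost without WT unstimulated, WT stimulated or KO unstimulated replicate 1 or either KO stimulated replicate, at an adjusted p threshold of 0.01, and in limma on FPKM (adjusted p from 0.151 to 0.179). With a replicate block, 5 members were higher in WT, as without it, and no count of calls changed. Groups of 2 allow no test for a deviating library, and the lowest levels (*Atf3* in unstimulated HZ, *Chac1* before stimulation) rest on the fewest counts.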
